A study of Mus musculus with 21 samples.

Results

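Hippocampus and cortex were compared in the control mice of a study of neuronal poly-GA, a dipeptide repeat protein linked to ALS with C9orf72 expansions, which the transgenic animals of that study make in excitatory neurons. The members were chosen by their labels alone, as every library labelled ctrl: 4 from hippocampus and 5 from cortex, 9 of the 21 libraries of the series. The hippocampus libraries came from mice 11, 20, 31 and 37 and the cortex libraries from the same 4 mice and from mouse 38. The labels give mice of 30 to 40 weeks. They name the genotype only as ctrl. The study calls controls of this line Camk2a in its staining, and does not state for these libraries whether they carry the Camk2a-Cre driver alone. The GFP sequence added to the genome was hit by 4 counts in all 9 libraries together and by 0 in hippocampus. The numbers of control hippocampi and cortices that the study gives are the reverse of those in the labels, which were followed here. Prox1, Zbtb20 and Tbr1 separated the 9 libraries as labelled. The mice were on a C57BL/6J background, and the brains were perfused with PBS and microdissected before RNA was taken. RNA was measured with prime-seq, a bulk protocol that tags and pools samples early and reads the 3′ ends of polyadenylated transcripts. Levels are given as CPM, the counts of a gene per 1e+06 counts of its library, scaled by TMM factors, and are listed in the order of mice 11, 20, 31, 37 and, for cortex, 38. Differences are on the log2 scale, hippocampus minus cortex, with a standard error (SE) from the fit. A gene was called when its adjusted p was under 0.05 in the quasi-likelihood test of edgeR with batch as a term.

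The hippocampus is a folded, phylogenetically old part of the cortex. Its granule cells in the dentate gyrus send mossy fibres to CA3 pyramidal cells, which excite CA1, while CA2 is a small field between them with its own molecular identity. The neocortex is built of layers, with neurons of the upper layers that connect cortical areas, layer 5 neurons that project to the brainstem and spinal cord, and layer 6 neurons that project to the thalamus. Both tissues hold glutamatergic neurons, GABAergic interneurons, glia and vessels. The choroid plexus and its ependymal border lie against the hippocampus in the ventricle, and the striatum lies under the cortex, so that a dissection can carry pieces of them.

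Before the results, several sets of libraries stood apart. Transcripts of the choroid plexus, the epithelium that makes cerebrospinal fluid, were abundant in 3 of the 4 hippocampus libraries. The summed level of the 20 listed choroid plexus genes was 11296, 36632, 1956 and 27216 CPM in hippocampus and 1883 to 2790 CPM in cortex, so that only the hippocampus library of mouse 31 lay within the cortex range. Transcripts of striatal projection neurons were raised in every cortex library, where the 16 listed genes summed to 1152 to 1812 CPM, against 247 to 334 CPM in hippocampus. No cortex library was free of them, so a tissue difference in genes that the striatum also expresses cannot be told apart from this carry-over.

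**Figure D1:**
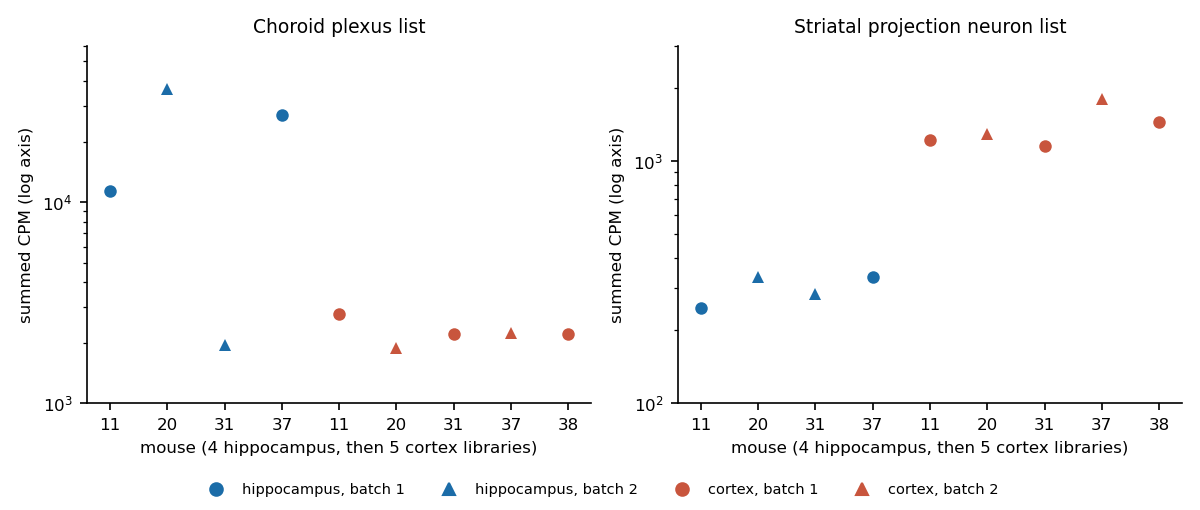
Summed CPM of the choroid plexus list (left) and of the striatal projection neuron list (right) in each of the 9 control libraries, on log axes, with mouse numbers below. Points are libraries, coloured by tissue and shaped by batch. Hippocampus libraries 11, 20 and 37 lie at 11296 CPM or more on the left, and all 5 cortex libraries lie at 1152 CPM or more on the right.

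The cortex of batch 1, from mice 11, 31 and 38, and in fewer genes the hippocampus of batch 1, from mice 11 and 37, stood apart as well. The labels split the libraries over 2 batches, and both batches held both tissues. A term for a tissue difference that depends on batch was called for 31 genes, 0.215% of those tested, and in 16 of them the 3 cortex libraries of batch 1 lay above every other library. Akap5, which anchors protein kinase A at the synapse, stood at 5856, 837, 4014, 771 and 5115 CPM in cortex and at 318, 349, 371 and 404 CPM in hippocampus. Its log2 difference was -3.78 within batch 1 and -1.16 within batch 2 (adjusted p = 1.48e-05 for the dependence on batch, edgeR). Synpr, a synaptic vesicle protein, followed the same pattern at 745, 105, 479, 97.1 and 643 CPM in cortex and 117, 75.6, 85.5 and 100.1 CPM in hippocampus, as did Slc25a46, Dennd4a, Kif3a, Gm43652 and the endothelial gene Pecam1. The opposite pattern, with batch 1 cortex under every other library, held for 6 of the 31 genes, among them mt-Co2 and Sec14l4. In 7 genes both hippocampus libraries of batch 1 lay under every other library. Olfr1044, an odorant receptor gene with the lowest adjusted p of the 31, had 0.317, 79.5, 89.5 and 0.23 CPM in hippocampus and 68.8, 97.9, 50.8, 110.4 and 50.6 CPM in cortex, with a log2 difference of -5.85 within batch 1 and -0.30 within batch 2. Its call as lower (edgeR, adjusted p = 0.0345) was lost without hippocampus 11 or 37 or cortex 11, 31 or 38 (0.0513 to 0.0894). Of the 31 genes, 17 were also called lower and 2 higher in hippocampus, and the part of batch in these calls was not tested.

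**Figure D2:**
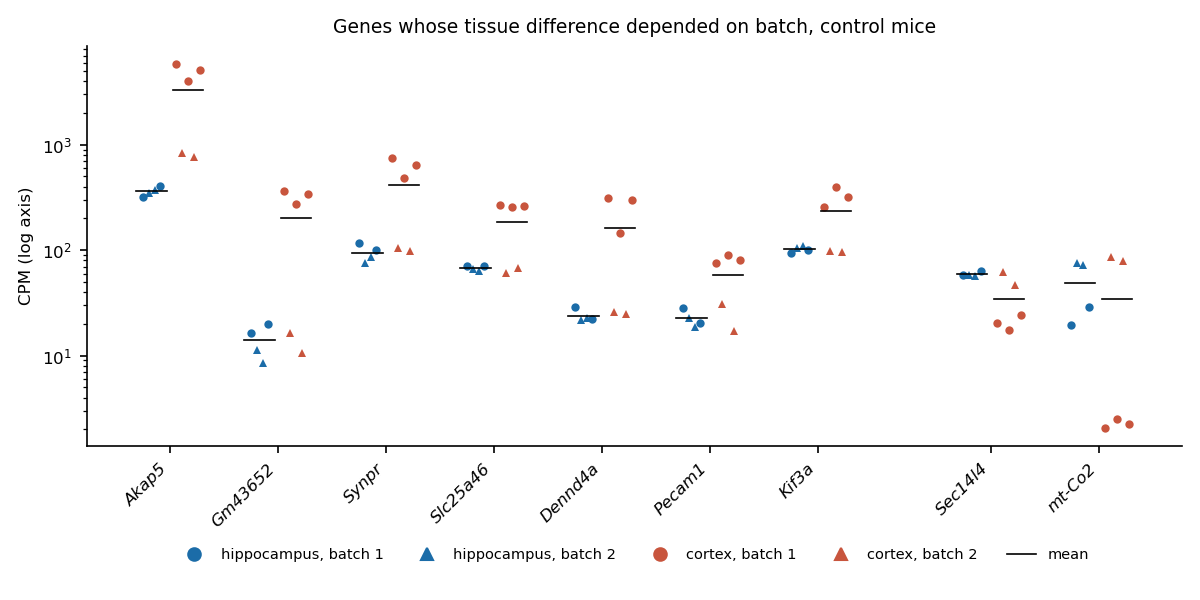
CPM (log axis) of 9 genes whose tissue difference depended on batch, one point per library, with tissue by colour, batch by shape and the tissue mean as a line. The 3 cortex libraries of batch 1 (red circles) lie apart from the 2 cortex libraries of batch 2, which lie near the hippocampus for most of these genes.

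Total counts ran from 1048201 to 5888102 with a median of 2729225. The number of genes detected was 36356 ± 3510 (SD, n = 4) in hippocampus and 29391 ± 4001 (SD, n = 5) in cortex (exact two-sided permutation test, p = 0.0317). Adjusted over the 3 measures tested this did not pass (0.0952), and neither did total counts (exact p = 0.127, adjusted 0.19) or the mitochondrial share (13.3% against 13.6%, exact p = 0.675, adjusted 0.675). The smallest p that 126 splits of 9 libraries allow is 0.00794. The female-expressed gene Xist was high in both tissues of mouse 31 and low in the other libraries, so the label of mouse 31 matched across tissues. On a principal component analysis of all tested genes, the first component (33.6% of the variance) separated the tissues and the second (25.9%) the batches, and the cortex of mouse 31 lay closest to the hippocampus.

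Of 14435 genes tested, 2351 differed (16.3%), 1254 higher (8.69%) and 1097 lower (7.6%) in hippocampus. The mouse was also entered as a replicate block, which pairs the tissues of the 4 mice with both and leaves mouse 38 without weight. This gave 2002 calls (13.9%), and 1819 genes were called in both fits in the same direction, 77.4% of the 2351. The tissues did not overlap over the 9 libraries in 1119 genes with hippocampus above (7.75%) and in 975 genes with cortex above (6.75%). Within each batch the sign was the same as in the whole fit for 2334 of the 2351 genes, which were chosen by a fit to these same libraries. Batch 1 alone called 1017 of the 2351 in the same direction, and batch 2 alone 1065. The median log2 difference was 0.78 among genes called higher and -0.62 among genes called lower, and 434 and 259 of them passed a log2 difference of 1 in either direction. Among the fits that left out a single library, the number called higher was lowest without the cortex of mouse 38, at 808. In 3 further fits, given in this order throughout, the batch 1 cortex libraries were left out, the choroid plexus score of a library was a covariate, or the 3 hippocampus libraries with abundant choroid plexus transcripts were left out. These gave 565, 348 and 264 genes higher and 341, 190 and 141 lower. With batch as a term, the first of these fits takes its tissue difference from batch 2 only, hippocampus 20 and 31 against cortex 20 and 37. The third sets hippocampus 31 alone, from the only mouse with high Xist, against cortex 20 and 37. Choroid plexus, mouse and tissue cannot be told apart in it. When the cortex library of mouse 31 was left out of the main fit, the total rose to 3168. For every list below, the shares over all genes are 8.69% higher and 7.6% lower. The lists were chosen with earlier results of these data known, so their counts are not independent of these data.

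**Figure D3:**
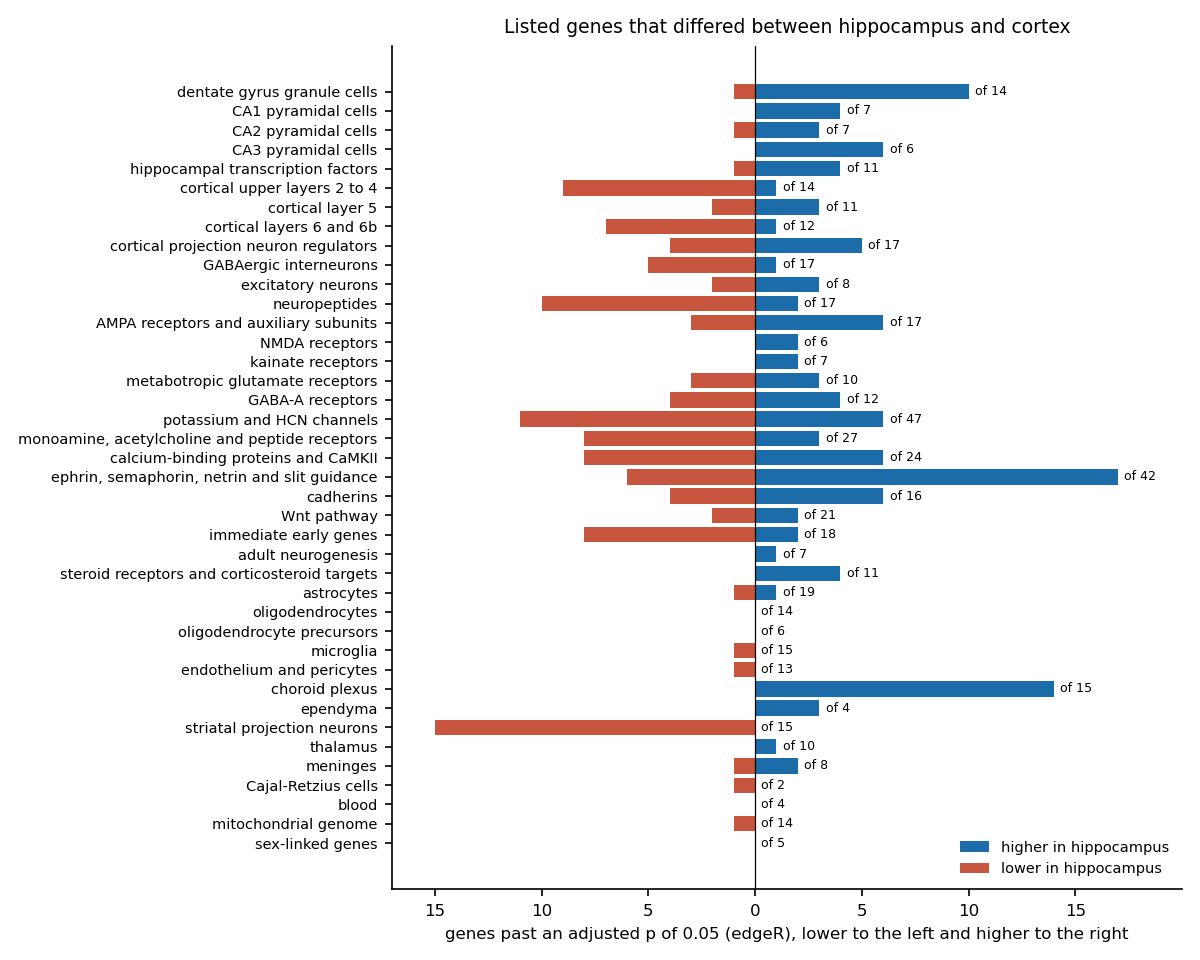
Number of genes past an adjusted p of 0.05 (edgeR) in each gene list, lower in hippocampus to the left and higher to the right, with the number of tested members beside each bar. Bars to the right dominate for the hippocampal subfields and guidance molecules, bars to the left for cortical upper layers, layers 6 and 6b, neuropeptides and immediate early genes.

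Most genes of the hippocampal subfields were higher in hippocampus. The 4 subfield lists together hold 38 genes, of which 34 were tested, and 23 were higher, 2 lower and 9 did not pass. Their median log2 difference was 0.81, beside -0.0009 for all tested genes. All 23 kept their sign when the 3 batch 1 cortex libraries were left out (14 passed higher) and when the choroid plexus score was a covariate (15 passed higher). With the 3 hippocampus libraries with abundant choroid plexus transcripts left out, 22 of the 23 kept their sign. In that fit the lone hippocampus library of mouse 31 was assumed to vary like the cortex libraries. With batch as a term it was set against cortex 20 and 37, the cortex libraries of its batch. In bulk tissue, fewer cells of a type and less RNA per cell cannot be told apart.

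Among 14 tested genes of dentate gyrus granule cells, 10 were higher, 1 was lower and 3 did not pass, and 8 of these 11 calls held whichever library was left out. In the 3 further fits 6, 6 and 5 genes passed higher and 0, 0 and 0 lower. Prox1, the homeobox gene that sets and keeps granule cell identity, stood at 42.8, 36.3, 36.2 and 45.7 CPM in hippocampus and at 10.3, 6.79, 10.3, 10.6 and 10.2 CPM in cortex. Every hippocampus library lay above every cortex library (log2 difference 2.06, SE 0.15, edgeR, adjusted p = 6.40e-08). C1ql2, a secreted complement-like protein of the mossy fibre synapse, was 7.27-fold higher, at 41.2, 24.9, 38.5 and 36.7 CPM against 3.08, 6.79, 4.26, 7.96 and 3.11 CPM (adjusted p = 7.49e-07, edgeR). Lct, which encodes lactase and marks granule cells in the mouse brain, stood at 11.4, 6.78, 13 and 12.2 CPM against 2.05, 1.94, 1.07, 1.59 and 0.848 CPM, and the tissues did not overlap. The desmosomal gene Dsp (2.81), the GTPase regulator Dock10 (1.23), the ciliary transcription factor Rfx3 (0.94) and the tryptophan-degrading enzyme Tdo2 (1.55) were higher as well. Maml2, a coactivator of Notch, stood at 38, 31.1, 13.6 and 31.9 CPM in hippocampus against 16.4, 11.6, 18.8, 19.1 and 13.8 CPM in cortex. Its lowest hippocampus library was that of mouse 31, whose choroid plexus sum lay within the cortex range. Maml2 also lay within the cortex range there. Maml2 was not called with the mouse as block (adjusted p = 0.0651, edgeR). Calb1, whose product calbindin fills mature granule cells but also cortical neurons, was lower (244, 223, 215 and 250.02 CPM against 312, 269, 265, 337 and 292 CPM, log2 difference -0.34), and lost its call when any of 6 single libraries was left out, with adjusted p from 0.0513 to 0.136. The synaptic organiser C1ql3 did not pass the test (log2 difference -0.17, adjusted p = 0.708, edgeR).

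CA1 was represented by 7 genes, of which 4 were higher and 3 did not pass, and the 4 calls held whichever library was left out, while 4, 3 and 2 passed in the 3 further fits. Spink8, a Kazal-type protease inhibitor, had the lowest adjusted p of all lists among genes higher in hippocampus. Its levels were 81.4, 83.6, 105 and 67.3 CPM in hippocampus and 10.3, 8.72, 7.11, 10.6 and 8.76 CPM in cortex, a 9.02-fold difference (log2 SE 0.15, adjusted p = 1.19e-09, edgeR). Fibcd1, a membrane receptor with a fibrinogen domain, stood at 49.4, 42.4, 48.1 and 28.7 CPM against 11.3, 8.72, 8.53, 7.43 and 7.35 CPM. Both genes were separated by a wide gap, and within the 4 mice their difference ran from 2.59 to 3.75 for Spink8 and from 1.85 to 2.40 for Fibcd1. The POU factor Pou3f1 (0.78, SE 0.11) and the Golgi mannosidase Man1a (0.71, SE 0.16) were higher by less. Wfs1, which encodes the ER protein wolframin and is often used to label CA1, did not pass at 44.7, 55.5, 61.1 and 59.5 CPM against 54.4, 62, 59, 67.4 and 73.5 CPM, and its tissues overlapped.

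In the CA2 list, 3 of 7 tested genes were higher, 1 was lower and 3 did not pass, and in the 3 further fits 2, 1 and 0 genes passed higher and 1, 1 and 1 lower. Amigo2, an adhesion protein, stood at 21.5, 22.6, 19.2 and 25.3 CPM in hippocampus and 9.24, 11.6, 6.04, 13.8 and 7.06 CPM in cortex. Rgs14, a signalling scaffold that restrains plasticity in CA2, was at 66.2, 50.1, 64.5 and 60.6 CPM against 25.7, 29.1, 35.2, 36.6 and 41.5 CPM, with no overlap (log2 difference 0.79, SE 0.14, edgeR, adjusted p = 6.20e-04). The lipid-transfer gene Stard5 was higher at 10.5, 11.5, 10.8 and 12.4 CPM against 6.16, 3.88, 5.68, 4.78 and 4.52 CPM. Pcp4, a calmodulin-binding peptide of CA2 but also of deep cortical layers and striatum, went the other way at 313, 427, 456 and 491 CPM against 987, 1252, 850.2, 1277 and 1066 CPM, a log2 difference of -1.38 (edgeR, adjusted p = 1.42e-06). It moved in the direction of the striatal genes that every cortex library carried.

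All 6 tested CA3 genes were higher, and the 6 calls held with the mouse as block and whichever library was left out. Of the 6, 2, 5 and 3 passed in the 3 further fits and 2 passed in batch 2 alone, and all 6 kept their sign. Npy2r, the presynaptic receptor for neuropeptide Y, stood at 35.2, 27.8, 19.8 and 24.3 CPM against 7.18, 3.88, 4.97, 7.43 and 4.52 CPM. Rnf182, a ubiquitin ligase, was at 34.2, 30.6, 31.7 and 31.7 CPM against 1.03, 7.75, 8.88, 5.84 and 9.04 CPM (log2 difference 2.14, SE 0.22, edgeR, adjusted p = 4.84e-06). Hippocampus lay above cortex in every library for both. Grik4, the high-affinity kainate receptor subunit of mossy fibre synapses, was higher by 1.14, and the cytokine signalling inhibitor Socs2, the Bcl-2 family member Bok and the copine Cpne4 were higher by 0.83, 0.69 and 0.63. Iyd and Csf2rb2, also on this list, had 30 and 38 counts in all 9 libraries together and were not tested.

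Of 11 tested transcription factors linked to the hippocampus, 4 were higher, 1 was lower and 6 did not pass. Zbtb20, a zinc finger repressor needed for the formation of the CA fields, stood at 489.9, 416, 502 and 483 CPM in hippocampus and 96.5, 66.9, 119, 99.8 and 80.5 CPM in cortex. The difference of 5.12-fold was nearly the same in both batches (log2 difference 2.31 and 2.47, edgeR, adjusted p = 4.02e-09 over both). Nr3c2, the mineralocorticoid receptor that binds corticosterone in hippocampal neurons, was at 58.6, 41.7, 62.8 and 45.9 CPM against 14.4, 12.6, 18.5, 9.56 and 17 CPM. Lmo1 (1.33) and Lhx9 (2.10), both LIM-domain genes, were higher, and Lhx9 is also on the thalamus list. Meis2, a homeobox gene that marks striatal neurons, was lower at 30.7, 42.2, 34 and 33.3 CPM against 117, 99.8, 84.9, 100.3 and 91 CPM. The patterning genes Emx2 (0.57, adjusted p = 0.0544, edgeR) and Lhx2 (0.39, adjusted p = 0.0774) did not pass.

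**Figure D4:**
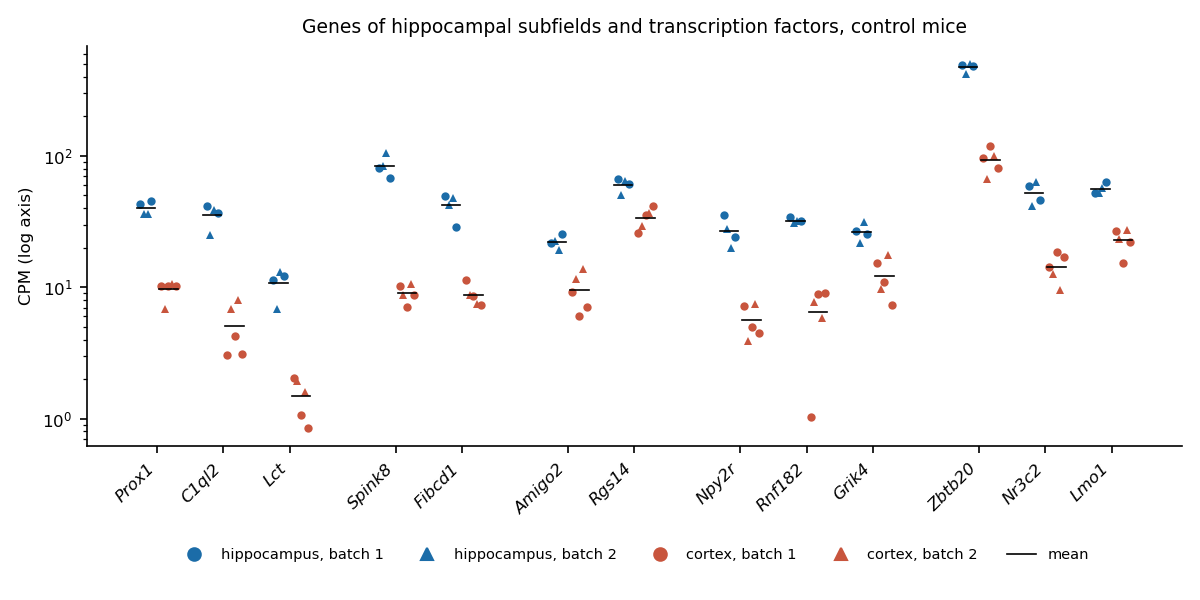
CPM (log axis) of genes of the dentate gyrus, CA1, CA2 and CA3 and of hippocampal transcription factors, from left to right, one point per library, with tissue by colour, batch by shape and the tissue mean as a line. Every hippocampus library lies above every cortex library for each gene shown.

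Among the genes of cortical layers that passed, most were lower in hippocampus. Of 37 tested genes on the 3 layer lists, 18 were lower, 5 higher and 14 did not pass. With the batch 1 cortex libraries left out, 10 of the 18 passed and 16 kept their sign among 35 genes tested. A gene that was not tested in that fit was counted as not keeping its sign. With the choroid plexus hippocampus libraries left out, all 18 kept their sign and 8 passed.

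For the upper layers 2 to 4, 9 of 14 genes were lower, 1 was higher and 4 did not pass. Lamp5, a lysosome-related membrane protein of upper layer and neurogliaform cells, stood at 23.1, 20.9, 27.7 and 31 CPM in hippocampus and 106, 94, 152, 63.7 and 104 CPM in cortex. Cux2, the homeobox gene of layers 2 to 4, was at 25.7, 34.8, 28.9 and 35.4 CPM against 53.4, 99.8, 102, 78.6 and 76 CPM (log2 difference -1.40, SE 0.16, edgeR, adjusted p = 1.54e-05). Both separated the tissues in every library. Dkkl1 had the largest difference of the list, at 3.49, 2.61, 2.26 and 4.36 CPM against 37, 20.4, 26.6, 26 and 40.1 CPM, which is 8.82-fold lower in hippocampus. Plexin D1 (Plxnd1, -1.29), otoferlin (Otof, -1.55), the Wnt agonist Rspo1 (-2.33) and the peptide precursor Cartpt (-1.41) were lower too. Mdga1, an adhesion molecule that restrains synapse formation, was the exception at 26, 12.7, 25.5 and 16.1 CPM against 9.24, 2.91, 6.4, 10.6 and 7.06 CPM. Rorb, the nuclear receptor of layer 4, stood at 1419.5, 106, 86.1 and 109 CPM in hippocampus and 159, 142, 208, 161 and 162 CPM in cortex and was not called (adjusted p = 0.228, edgeR). Its hippocampus library of mouse 11 lay far above all 8 others, and the remaining 3 hippocampus libraries lay under every cortex library. Without the library of mouse 11 it was lower in hippocampus (log2 difference -0.67, adjusted p = 0.00174, edgeR).

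Of the layer 5 genes, 3 of 11 were higher in hippocampus, 2 were lower and 6 did not pass. The shares over all genes were 8.69% higher and 7.6% lower. Crym, a thyroid hormone binding protein of layer 5 neurons, was higher at 235, 231, 173 and 186 CPM against 113, 126, 88.1, 96.1 and 100.01 CPM (log2 difference 1.00, SE 0.12, edgeR, adjusted p = 2.81e-05). Fam84b was higher by 1.34. Fezf2, which specifies corticospinal neurons, was slightly higher at 25.7, 24.5, 26.6 and 24.3 CPM against 19.5, 19.4, 14.6, 15.4 and 20.9 CPM, and its call was lost when any of 5 single libraries was left out, with adjusted p from 0.0565 to 0.112. Deptor, an inhibitor of mTOR, was lower at 15.8, 21.2, 24.3 and 16.1 CPM against 35.9, 35.9, 40.5, 28.7 and 35.3 CPM. Bcl11b, a zinc finger gene of subcerebral neurons and of dentate granule cells, did not pass (log2 difference 0.31, adjusted p = 0.0599, edgeR).

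In layers 6 and 6b, 7 of 12 genes were lower, 1 was higher and 4 did not pass, and 7 of these 8 calls held whichever library was left out. Tbr1, the T-box gene of corticothalamic neurons, stood at 19.3, 19.5, 22.6 and 23.6 CPM in hippocampus and 51.3, 52.3, 52.2, 37.2 and 55.9 CPM in cortex. Foxp2, a forkhead gene of layer 6, was at 4.75, 5.56, 9.06 and 5.28 CPM against 15.4, 21.3, 18.1, 27.6 and 13.6 CPM. Its highest cortex value was in mouse 37, where the striatal list summed to 1812 CPM, the most of any library. Its lowest cortex value was in mouse 38, where that list summed to 1448 CPM. The part of striatal carry-over in Foxp2 was not tested. Cplx3, a complexin of subplate-derived layer 6b neurons, was at 6.02, 5.39, 4.53 and 5.05 CPM against 17.4, 14.5, 18.1, 18 and 23.7 CPM. For all 3 genes every cortex library lay above every hippocampus library. The layer 6b gene Ccn2 (-1.78), Rprm (-1.66) and the synaptotagmin Syt6 (-1.46) followed, while Hs3st4, a heparan sulfate sulfotransferase, was higher in hippocampus at 56.4, 38.1, 50.4 and 40.2 CPM against 30.8, 22.3, 23.1, 23.4 and 21.2 CPM. The corepressor Tle4 did not pass (log2 difference -0.08, adjusted p = 0.702, edgeR).

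The regulators of projection neurons split, with 5 of 17 higher in hippocampus and 4 lower, and in the 3 further fits 3, 4 and 3 genes passed higher and 3, 3 and 2 lower. The activity-dependent factor Mef2c was lower at 95.4, 108, 96.8 and 108 CPM against 388, 388, 491, 299 and 433 CPM (log2 difference -1.94, SE 0.12, edgeR, adjusted p = 1.37e-08). The proneural factors went the other way. Neurod6 stood at 173, 144, 172 and 142 CPM against 83.1, 67.9, 55.4, 44.6 and 60.7 CPM and Neurod2 at 106, 79.5, 104 and 119 CPM against 44.1, 45.6, 58.3, 35 and 56.5 CPM, and Bhlhe22 was higher by 1.52 and the GATA cofactor Zfpm2 by 0.77. The areal gene Nr2f1 (-0.04) and the LIM-domain gene Lmo4 (-0.19) did not pass.

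**Figure D5:**
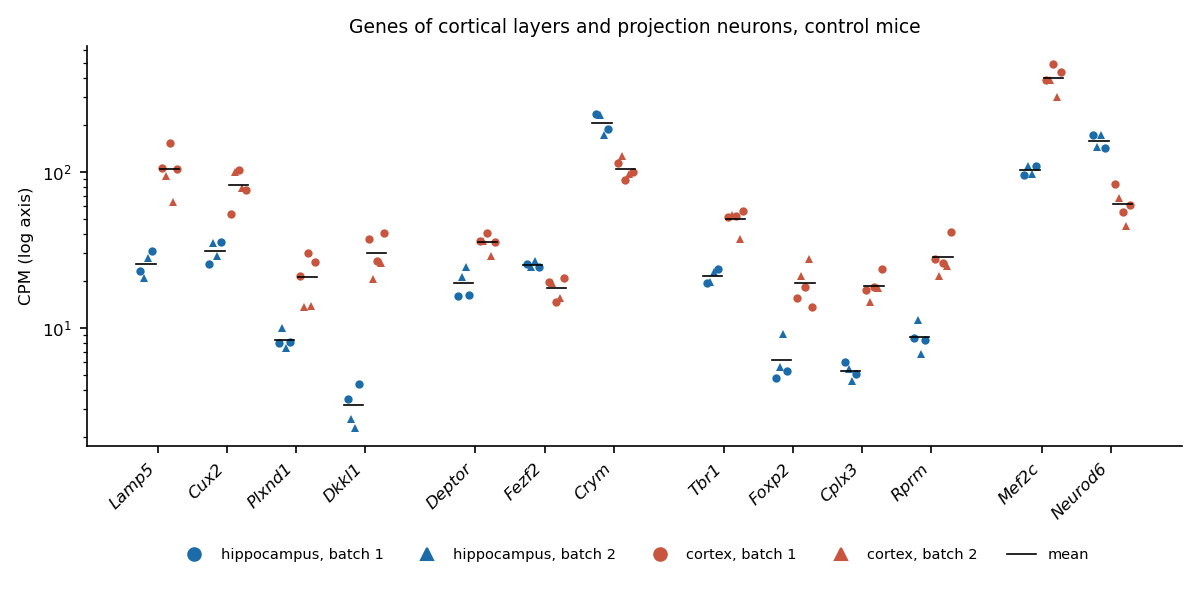
CPM (log axis) of genes of upper layers, layer 5, layers 6 and 6b and projection neuron regulators, from left to right, one point per library, with tissue by colour, batch by shape and the tissue mean as a line. Cortex lies above hippocampus in every library for the upper layer and layer 6 genes shown, and below it for Fezf2, Crym and Neurod6.

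The general marker of glutamatergic neurons overlapped between the tissues. Slc17a7, the vesicular glutamate transporter, stood at 407, 357, 387 and 423 CPM in hippocampus and 390.02, 338, 424, 288 and 435 CPM in cortex (log2 difference 0.11, adjusted p = 0.497, edgeR). Of the 8 genes of excitatory neurons, 3 were higher and 2 lower. Of the interneuron genes, 5 of 17 were lower, 1 was higher and 11 did not pass, beside 7.6% lower and 8.69% higher over all genes. In the 3 further fits 0, 0 and 0 genes passed higher and 2, 1 and 1 lower. Vip, the peptide of disinhibitory interneurons, was lower at 15.5, 13.9, 13 and 18.1 CPM against 41.1, 41.7, 36.6, 30.3 and 28.3 CPM, and the parvalbumin gene Pvalb was lower at 109, 115, 156 and 114 CPM against 189.9, 174, 172, 174 and 182 CPM. Both were separated in every library. The GABA transporter Slc32a1 (-0.64) and Npy (-0.62) were lower, whereas the GABA-synthesising enzyme Gad1 (-0.20, adjusted p = 0.144, edgeR) and the somatostatin gene Sst (-0.22, adjusted p = 0.133) did not pass.

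Neuropeptide genes were lower in hippocampus for 10 of 17, higher for 2, and 5 did not pass, beside 7.6% and 8.69% over all genes. All 12 kept their sign with the batch 1 cortex libraries left out (8 passed lower, 0 higher) and with the choroid plexus hippocampus libraries left out (6 and 1). Penk, the enkephalin precursor, stood at 70.3, 78.8, 77 and 85.9 CPM against 622, 612, 434, 879 and 647 CPM, and Tac1, the precursor of substance P, at 13.9, 18.8, 17 and 13.5 CPM against 93.4, 97.9, 67.2, 134 and 91 CPM. These had the largest differences of the list (-3.04 and -2.64), and both are also on the striatal list, whose summed level moved in the same direction. Outside that list, Tac2 (8.24, 10.4, 6.23 and 9.64 CPM against 19.5, 25.2, 16.7, 24.9 and 19.5 CPM), Crh (5.07, 3.48, 4.53 and 4.82 CPM against 9.24, 14.5, 7.11, 15.4 and 9.61 CPM) and Adcyap1 (-1.19) were lower. The opioid precursor Pdyn was lower by a log2 difference of -1.47. Absence from the striatal list does not free a gene of carry-over, and the part of carry-over in these differences was not tested. Bdnf, the neurotrophin released from mossy fibres, was higher at 69.1, 60.5, 91.7 and 77.4 CPM against 35.9, 66.9, 41.2, 52 and 48.6 CPM (log2 difference 0.59, SE 0.15, edgeR, adjusted p = 0.01), though a cortex library reached into the hippocampal range. Cck, abundant in both tissues, did not pass (-0.04, adjusted p = 0.846).

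Glutamate receptor genes moved in both directions. Over 40 tested genes of AMPA, NMDA, kainate and metabotropic receptors and their auxiliary subunits, 13 were higher, 6 lower and 21 did not pass, and in the 3 further fits 11, 10 and 8 genes passed higher and 2, 1 and 1 lower. Gria1, the AMPA subunit that is inserted during potentiation, stood at 442, 358, 449 and 371 CPM in hippocampus and 155, 115, 195, 147 and 139 CPM in cortex (log2 difference 1.44, SE 0.12, edgeR, adjusted p = 6.48e-07). Shisa6, which keeps AMPA receptors in the synapse, was at 49.7, 42.4, 41.3 and 42 CPM against 16.4, 8.72, 10.7, 7.96 and 10.7 CPM, and the cornichon Cnih2 at 302, 319.9, 379.9 and 362 CPM against 151, 203, 155, 183 and 146 CPM. In all 3 the tissues were fully separated. Gria2 was higher by 0.66, while Gria3 (0.01, adjusted p = 0.972, edgeR) and Gria4 (-0.23, adjusted p = 0.319) did not pass. The auxiliary subunits split, with Cacng8 higher (0.57) and Cacng3 (-0.92) and Gsg1l (-1.54) lower. Among NMDA subunits Grin2a was higher at 225, 209, 245 and 206 CPM against 105, 67.9, 138, 97.7 and 97.5 CPM and Grin2b by 0.75, while the obligatory subunit Grin1 did not pass (0.16, adjusted p = 0.419, edgeR). Of the kainate genes, Grik4 and its partner Neto1 (0.73) were higher and 5 did not pass. Among metabotropic receptors and their scaffolds, Grm5 (0.50), Homer2 (0.73) and Homer3 (1.36) were higher and Grm3 (-0.84) was lower.

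GABA-A receptor subunits moved in both directions, 4 of 12 each, beside 8.69% higher and 7.6% lower over all genes. Of the 8 calls, 7 held whichever library was left out. In the 3 further fits 2, 2 and 2 genes passed higher and 1, 1 and 0 lower, so that 5 or more of the 8 calls were lost, while all 8 kept their sign. Gabra5, which forms the extrasynaptic receptors of CA1, stood at 156, 122, 143 and 117 CPM against 53.4, 56.2, 46.9, 46.7 and 66.4 CPM. Gabrd, the delta subunit of other extrasynaptic receptors, was lower at 28.2, 22.8, 28.9 and 28 CPM against 48.2, 58.2, 69.6, 47.2 and 67.2 CPM. The tissues were separated in both genes. Gabrb1 (0.83) and Gabra2 (0.76) were higher, and Gabra3 (-0.80) was lower. For Gabra2, the hippocampus library of mouse 11 lay far above the other 3.

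Potassium and HCN channel genes were lower in hippocampus for 11 of 47, higher for 6, and 30 did not pass. The shares over all genes were 7.6% lower and 8.69% higher. In the 3 further fits 5, 3 and 2 genes passed higher and 2, 1 and 1 lower, while all 17 kept their sign. Dpp10, which speeds the A-type current of Kv4 channels, was lower at 28.2, 32.7, 21.5 and 28 CPM against 54.4, 69.8, 77.5, 64.2 and 80.5 CPM, and the inward rectifier Kcnj4 at 11.7, 8.52, 11.9 and 10.1 CPM against 25.7, 20.4, 32, 18 and 23.2 CPM. Kcnh4, found in the striatum, was lower by -2.13 with at most 1.61 CPM in hippocampus. Kcnn2, a small-conductance channel that shapes the afterhyperpolarisation, was higher at 44.4, 42.4, 45.3 and 47.1 CPM against 25.7, 22.3, 29.1, 21.8 and 25.4 CPM (log2 difference 0.85, SE 0.12, edgeR, adjusted p = 1.17e-04). The beta subunit Kcnab2 (0.58) and Kcnn3 (1.26) were higher as well.

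Receptors for monoamines, acetylcholine and peptides were lower for 8 of 27 tested genes and higher for 3, beside 7.6% and 8.69% over all genes. Of the 40 listed genes, 13 were too low to test. In the 3 further fits 3, 2 and 1 genes passed higher and 2, 2 and 1 lower, though all 11 kept their sign. Cckbr, the brain cholecystokinin receptor, had 7.29, 5.91, 10.8 and 9.18 CPM in hippocampus against 28.7, 29.1, 33, 26 and 28.5 CPM in cortex, with a wide gap. The serotonin receptor Htr2a stood at 6.34, 7.3, 4.53 and 7.81 CPM against 21.6, 13.6, 18.8, 16.5 and 10.5 CPM, and the somatostatin receptor Sstr2 at 8.24, 8, 8.49 and 8.72 CPM against 15.4, 15.5, 18.8, 16.5 and 23.7 CPM. Drd5, the dopamine receptor of the D1 class that the hippocampus uses, was higher at 4.75, 5.39, 9.62 and 8.27 CPM against 2.05, 1.94, 2.49, 1.59 and 0.565 CPM (log2 difference 2.05, SE 0.40, edgeR, adjusted p = 0.00182). Oprk1 (-1.42) and Chrna4 (-0.81) were lower.

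Calcium sensors and CaMKII split by gene, with list counts to be read beside 8.69% higher and 7.6% lower over all genes. Hpca, hippocalcin, stood at 783, 802, 1135 and 1088 CPM in hippocampus against 375, 505, 425, 446 and 415 CPM in cortex, and Camk2a, the alpha subunit of the kinase of potentiation, at 899.6, 754, 919 and 824 CPM against 537, 425, 635, 722 and 484 CPM. Hippocampus lay above cortex in every library for both. The delta subunit Camk2d (60.5, 77.5, 62.3 and 78.1 CPM against 105, 136, 149, 151 and 133 CPM) and the inhibitors Camk2n1 (-0.87) and Camk2n2 (-0.71) were lower. In this list 6 of 24 genes were higher, 8 lower and 10 did not pass, and in the 3 further fits 3, 1 and 1 genes passed higher and 5, 3 and 2 lower. Camk2a is the promoter source of the Cre line of the study, and it is not stated for these libraries whether the controls carry it.

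Guidance molecules of the ephrin, semaphorin, netrin and slit families were higher in hippocampus for 17 of 42 tested genes, lower for 6, and 19 did not pass, against a background of 8.69% and 7.6%. Of these 23 calls, 17 held whichever library was left out. With the batch 1 cortex libraries left out, 9 passed higher and 1 lower, and with the choroid plexus hippocampus libraries left out 6 and 1, while all 17 higher genes kept their sign in both fits and 5 of the 6 lower ones did. The receptors Epha4 (168, 128, 156 and 146 CPM against 73.9, 63, 93.4, 53.1 and 64.4 CPM) and Epha7 (125, 91.1, 118 and 107 CPM against 62.6, 51.4, 52.6, 55.2 and 67.5 CPM) were higher and the ligand Efna5 was lower at 3.49, 4.52, 8.49 and 5.28 CPM against 17.4, 15.5, 25.9, 10.1 and 17.8 CPM. In the 3 genes the tissues did not overlap. Sema5a (1.51), the ligands Slit1 (1.30) and Slit3 (1.23), the receptors Plxna1 (0.97), Plxna4 (0.76) and Nrp2 (0.71) and the netrin receptor Dcc (0.91) were higher. Sema3a (-1.36) and Epha10 (-1.09) were lower. Epha10 stood at 33.9, 9.69, 36.6, 11.1 and 27.1 CPM in cortex, high in the 3 batch 1 libraries and within the hippocampal range of 9.41 to 11.3 CPM in both others, and its log2 difference was 0.06 within batch 2.

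Cadherin genes differed in both directions, with 6 of 16 higher and 4 lower, beside 8.69% and 7.6% over all genes. The tissues did not overlap in 4 of the 16 with hippocampus above and in 2 with cortex above, beside 7.75% and 6.75% over all genes. Of the 10 calls, 6 held whichever library was left out. In the first 2 further fits 2 and 2 genes passed higher and 1 and 2 lower. The protocadherins Pcdh20 (53.9, 48.3, 47.6 and 51 CPM against 22.6, 5.82, 18.5, 9.02 and 14.1 CPM) and Pcdh19 (70, 61.9, 49.3 and 38.6 CPM against 21.6, 18.4, 25.9, 20.2 and 18.6 CPM) were higher, and Cdh22 (-1.32) and Cdh4 (-1.27) were lower. Of 21 Wnt pathway genes 4 were called, a share close to the 16.3% of all genes. Rspo1 and Wnt10a (-1.44) were lower and Fzd7 (1.37) was higher, though not with the mouse as block (adjusted p = 0.151, edgeR).

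Immediate early genes, which neurons switch on within minutes of activity, were lower in hippocampus for 8 of 18, higher for 2, and 8 did not pass. Egr1 stood at 36.4, 44.7, 54.4 and 52.3 CPM in hippocampus and 72.9, 158, 142, 85.5 and 89.3 CPM in cortex, Fos at 10.5, 10.8, 15.3 and 12.2 CPM against 21.6, 27.1, 40.9, 21.8 and 23.7 CPM, and Junb at 42.5, 37.7, 55.5 and 56.7 CPM against 63.6, 75.6, 127, 64.8 and 116 CPM. Every cortex library lay above every hippocampus library for these 3, although the cortex values of Egr1 spread from 72.9 to 158 CPM. Egr2 was lower by a log2 difference of -1.87 (SE 0.33, edgeR, adjusted p = 7.20e-04). Jun went the other way at 47.5, 42.2, 39.6 and 40.2 CPM against 17.4, 25.2, 22.4, 24.4 and 22.6 CPM, and so did the nuclear receptor Nr4a3 at 22.8, 22.8, 31.7 and 18.6 CPM against 8.21, 13.6, 11.7, 15.9 and 8.48 CPM. Arc, which is carried into dendrites, overlapped between the tissues (47.8, 40.7, 92.8 and 56.2 CPM against 50.3, 76.6, 142, 58.9 and 102 CPM, adjusted p = 0.127, edgeR), and was called lower with the mouse as block (adjusted p = 0.0467). Over all genes 7.6% were lower. The lower calls were mostly lost in the 3 further fits, where 1, 2 and 0 genes passed higher and 2, 0 and 1 lower, and 10, 10 and 9 of the 10 genes kept their sign.

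The promoters of 2 genes that were lower and 2 that were higher are shown, because immediate early genes are switched on through short elements close to their start sites, among them the cAMP response element. The windows are from RefSeq on GRCm38.p6, run from 250 bases before to 50 bases after the start site, and read 5′ to 3′ on the strand of the gene. Capitals mark TGACGT, the core letters of the cAMP response element, searched on both strands.
Fos, chr12:85473640-85473939, plus strand: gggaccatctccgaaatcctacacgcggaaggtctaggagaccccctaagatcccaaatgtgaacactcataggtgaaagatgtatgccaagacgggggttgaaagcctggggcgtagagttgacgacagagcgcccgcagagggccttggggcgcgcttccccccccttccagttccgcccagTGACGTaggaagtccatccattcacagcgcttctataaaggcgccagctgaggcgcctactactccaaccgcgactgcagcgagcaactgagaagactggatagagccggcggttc
Junb, chr8:84978699-84978998, minus strand: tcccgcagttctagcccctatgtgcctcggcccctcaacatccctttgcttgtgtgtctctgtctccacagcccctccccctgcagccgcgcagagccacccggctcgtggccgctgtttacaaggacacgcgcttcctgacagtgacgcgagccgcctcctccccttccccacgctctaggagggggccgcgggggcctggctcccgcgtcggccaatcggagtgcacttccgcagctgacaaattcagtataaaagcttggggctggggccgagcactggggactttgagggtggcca
Nr4a3, chr4:48045055-48045354, plus strand: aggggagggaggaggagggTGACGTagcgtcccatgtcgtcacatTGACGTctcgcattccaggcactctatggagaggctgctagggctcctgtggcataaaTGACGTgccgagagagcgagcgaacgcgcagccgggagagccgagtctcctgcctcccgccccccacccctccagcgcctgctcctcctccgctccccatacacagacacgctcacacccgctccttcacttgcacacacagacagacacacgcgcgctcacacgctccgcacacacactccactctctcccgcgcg
Jun, chr4:95052173-95052472, minus strand: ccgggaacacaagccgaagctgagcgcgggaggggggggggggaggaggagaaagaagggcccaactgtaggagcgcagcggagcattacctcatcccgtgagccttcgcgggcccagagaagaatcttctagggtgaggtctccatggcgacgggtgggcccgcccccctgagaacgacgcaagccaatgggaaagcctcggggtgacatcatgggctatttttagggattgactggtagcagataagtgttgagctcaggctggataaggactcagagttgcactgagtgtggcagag
The core occurred 1 time in the Fos window, 3 times in that of Nr4a3 and 0 times in those of Junb and Jun. A palindromic element counts on each strand. Of the 14 immediate early genes with a window here, 8 held a core. The share was 13.7% of the 9565 tested genes with a window and 8.37% of the 27025 genes with a window. Windows of 1 chromosome were not used, and Egr1 was among the genes without a window. Among the genes with a window, 4 of the 6 called lower and 1 of the 2 called higher held it. The presence of the letters did not follow the direction of the difference in the 4 genes shown.

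Adult neurogenesis was at the limit of the depth. Of 12 listed genes 7 were tested and 1 was called: Hopx, which marks quiescent neural stem cells but also astrocytes, was higher at 129, 114, 108 and 134 CPM against 78, 60.1, 70, 64.8 and 89 CPM. Eomes, Mki67 and Top2a, genes of dividing progenitors, had 33, 50 and 30 counts in the 9 libraries together, so a difference in them was not detectable at this depth. Of 11 genes of steroid receptors and their targets, 4 were higher and 0 lower, beside 8.69% and 7.6% over all genes. In the first 2 further fits 2 and 1 passed. Beside the mineralocorticoid receptor Nr3c2, the glucocorticoid target Zbtb16 was higher at 23.1, 26.6, 20.9 and 18.6 CPM against 15.4, 13.6, 13.1, 11.7 and 10.2 CPM (log2 difference 0.84, SE 0.17, edgeR, adjusted p = 0.00264). The glucocorticoid receptor Nr3c1 did not pass (log2 difference -0.09, adjusted p = 0.641, edgeR).

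Of 67 tested genes of astrocytes, oligodendrocytes, their precursors, microglia and endothelium, 1 was higher, 3 were lower and 63 did not pass, beside 8.69% higher and 7.6% lower over all genes, with a median log2 difference of 0.03. Gfap, the intermediate filament of astrocytes, was higher at 429, 282, 324 and 400.4 CPM against 359, 174, 277, 194 and 322 CPM, although the tissues overlapped (log2 difference 0.53, SE 0.11, edgeR, adjusted p = 0.00248). None of the 14 oligodendrocyte genes and 6 precursor genes passed in edgeR (1 and 0 at an unadjusted p under 0.05), DESeq2 or limma-voom, and the myelin gene Mbp stood at 304, 229, 245 and 309 CPM against 379, 264, 301, 290.4 and 324 CPM. The 15 microglial genes gave 1 call, C1qa at 56.7, 54.1, 58.9 and 66.1 CPM against 79, 86.3, 70, 80.2 and 86.5 CPM, which was lost without the hippocampus library of mouse 20 (adjusted p = 0.054, edgeR). Pecam1 was the call among endothelial genes and was high in the 3 batch 1 cortex libraries alone (74.9, 31, 89.5, 17 and 81.1 CPM).

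Outside the lists, the largest differences that separated all 9 libraries and all 4 mice were examined. Higher in hippocampus were Tgfb2, a growth factor of the TGF-beta family, at 47.2, 54.2, 41.3 and 62.2 CPM against 15.4, 10.7, 10.7, 7.96 and 10.7 CPM, and Lefty1, a secreted antagonist of Nodal, at 13.9, 15.6, 17 and 16.1 CPM against 3.08, 1.94, 1.78, 1.06 and 4.24 CPM. Krt18, an epithelial keratin, had the largest log2 difference of this set (3.45), but its levels of 10.5, 23.8, 3.96 and 24.6 CPM followed the choroid plexus libraries, with the lowest value in mouse 31, and their part in the result was not tested. Sln, the calcium pump regulator sarcolipin, spread from 4.44 to 27.6 CPM in hippocampus and stood at 0, 0.969, 2.49, 3.19 and 3.11 CPM in cortex. The uncharacterised transcripts Gm26644, Gm42710, Gm44799, Gm14285 and 2900027M19Rik were higher by 2.31 to 3.08, and their counts can share reads with genes that overlap them, since the use of strand is not stated.

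Lower in hippocampus in this set were Trbc2, Krt12, Igfbp6, Rxrg, Bmp3, Tnnc1, Atp6ap1l, Rasgef1c, Six3, Gm11549 and, beside Dkkl1, the genes Akap5, Gm19026, Acadvl and Tex9. Trbc2, a T cell receptor constant segment with a near-identical copy so that its counts are uncertain, stood at 2.53, 2.26, 3.4 and 2.3 CPM against 39, 31, 38, 11.7 and 28.5 CPM. Igfbp6, a binding protein for insulin-like growth factor, was at 27.6, 29.6, 31.7 and 26.6 CPM against 111, 161, 136, 88.7 and 125 CPM, and Krt12, a keratin known from the cornea, at 5.39, 3.83, 3.4 and 2.75 CPM against 32.8, 22.3, 32.3, 27.1 and 42.1 CPM. The tissues were far apart in all 3. Rxrg, a retinoid receptor of striatal neurons, and Six3, a homeobox gene of the ventral forebrain, were lower by log2 differences of -2.17 and -2.06, in the direction of the striatal list. Acadvl, an enzyme of fatty acid oxidation, stood at 23.6, 7.75, 20.3, 3.19 and 18.9 CPM in cortex and Tex9 at 19.5, 3.88, 25.6, 7.96 and 18.4 CPM, both high in the batch 1 cortex libraries, with log2 differences of -0.67 and -0.68 within batch 2.

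The lists set aside as neighbouring tissue gave the following counts. In the choroid plexus list 14 of 15 tested genes were higher and 1 did not pass. All 14 had a difference in the library of mouse 31 that was under 0.5 of that in the other 3 hippocampus libraries. The library of mouse 31 was singled out by the levels of these same genes, so this count follows from that choice. Ttr, transthyretin, stood at 10510.00, 33261, 1774 and 24675 CPM in hippocampus and 2605, 1679, 1849, 2013 and 1843 CPM in cortex. Over all genes, 169 of the 1254 higher calls (13.5%) showed this pattern, and 85 of the 434 with a log2 difference over 1. The pattern rests on the single library of mouse 31, which had 1754999 counts, and no other hippocampus library was set apart for comparison. The part of choroid plexus transcripts in these calls was not tested. Of the ependymal genes 3 of 4 were higher, and of the meningeal genes 2 of 8 were higher and 1 lower. In the striatal list 15 of 15 tested genes were lower. Adora2a, the adenosine receptor of the indirect pathway, was at 1.58, 1.91, 1.7 and 2.07 CPM against 25.7, 22.3, 21.7, 30.3 and 28.3 CPM, and Drd1 at 1.58, 2.09, 3.4 and 4.13 CPM against 12.3, 18.4, 21.3, 24.4 and 21.2 CPM. The thalamic list gave 1 call of 10 (Lhx9), blood genes 0 of 4 and Cajal-Retzius genes 1 of 2. Of the 14 mitochondrial genes tested, mt-Co3 alone was called, at 12, 272, 237 and 81.3 CPM against 416, 259.8, 339, 301 and 316 CPM, and the call was lost when any of 3 single libraries was left out (adjusted p 0.0586 to 0.0924, edgeR), and reads of mitochondrial genes can be shared with nuclear copies. Sex-linked genes gave 0 calls of 5. For blood and sex-linked genes, 1 and 2 had an unadjusted p under 0.05 in edgeR, and DESeq2 and limma-voom called 0.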

How the data were processed

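Polyadenylated RNA of 9 control libraries was taken from the table of counts per gene that the authors deposited for the series, as whole, unnormalized counts. Per the labels and the study's methods, the authors trimmed reads with cutadapt 1.12 and mapped them with STAR to GRCm39 with a GFP sequence added, within zUMIs; the annotation release, the use of strand and whether reads or molecular identifiers were counted are not given in the sources used here. No count column lay outside the samples. Symbols came from GENCODE vM21 and matched 43308 of 64361 gene rows, which held 96.0% of the counts; no coordinates were taken from it.

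Genes were kept by filterByExpr (minimum count 10), scaled by TMM and tested with edgeR 4.0.16 (R 4.3.3, quasi-likelihood, batch and tissue as terms), with Benjamini-Hochberg adjustment over all 14435 genes. The scripts were tested on simulated data, where the fit without a block made false calls at a share slightly above the threshold and the fit with the mouse as block at a share well above it, so calls made with the block alone are less certain. limma 3.58.1 and DESeq2 1.42.0 served for alternatives. CPM values carry counting error that grows at low depth (1048201 to 5888102 counts per library). The p-values of the main fit rest on the spread between the 9 libraries of 5 mice. There the 2 tissues of a mouse were treated as independent.

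Equal mouse numbers mark the same animal in both tissues, so the mouse was also entered as a replicate block. After removal of batch, the residuals of the 2 tissues of a mouse correlated at -0.20, -0.26, 0.26 and 0.17 for mice 11, 20, 31 and 37.

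Named genes were members of the gene lists and, per direction, the 15 largest differences called in both fits, with a mean log2 CPM of at least 3, no overlap between tissues and the same direction in 4 mice, outside the lists of neighbouring tissue; GFP and sex-linked genes served as label checks. Synpr, Slc25a46, Dennd4a, Kif3a, Gm43652, mt-Co2, Sec14l4 and Olfr1044 were chosen after their values were seen. The members and lists were chosen with earlier results of these data known. Some genes of the lists are counted but not reported by name here.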

Additional observations from a re-analysis of the deposited data

Results flagged for a closer look

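Among 454 groups of 4 or 5 libraries (the genes named above and the summed lists), 28 (6.17%) held a library far from the others by Dixon's criterion, which chance alone meets in about 1 in 20 groups.

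In hippocampus, the library of mouse 11 was the highest for Rorb (1420 CPM), Gabra2 (227 CPM), Gm14285 (54.2 CPM), Shisa6 (49.7 CPM), Dennd4a (28.8 CPM) and the summed upper layer list (1563 CPM), which contains Rorb. The same library was the lowest for Homer2 (47.5 CPM), Six3 (0.634 CPM) and the summed neuropeptides (1331 CPM). The library of mouse 20 was the lowest for Gabrd (22.8 CPM) and Camk2n1 (347 CPM) and the highest for Otof (4.17 CPM). That of mouse 31 was the highest for Xist (94.5 CPM) and Pvalb (156 CPM), and that of mouse 37 for Rasgef1c (5.28 CPM) and the summed hippocampal transcription factors (986 CPM).

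In cortex, the library of mouse 31 was the highest for Camk2n1 (961 CPM), Gria2 (462 CPM), Xist (74.3 CPM), Fos (40.9 CPM), Gsg1l (27.7 CPM) and Gm42710 (4.62 CPM). That of mouse 20 was the lowest for Prox1 (6.79 CPM) and Rfx3 (21.3 CPM), that of mouse 37 for Tbr1 (37.2 CPM) and that of mouse 38 for Adcyap1 (13.6 CPM). The library of mouse 11 was the highest for Hs3st4 (30.8 CPM) and that of mouse 38 for the summed layer 6 and 6b list (307 CPM).

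The tissue difference depended on batch for 11 named genes, by edgeR's test of the tissue-by-batch term. The difference in batch 2 minus that in batch 1, on the log2 scale, was 7.14 for Olfr1044 (adjusted p = 7.83e-08), 4.32 for Gm19026 (adjusted p = 3.78e-05), 3.85 for Gm43652 (7.34e-06), 3.09 for Dennd4a (0.00132), 2.63 for Akap5 (1.48e-05), 2.19 for Synpr (0.00019), 1.90 for Slc25a46 (3.78e-05), 1.88 for Kif3a (0.000427) and 1.70 for Pecam1 (0.0399). It was -1.44 for Sec14l4 (0.0189) and -3.52 for mt-Co2 (1.48e-05).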

How the results depend on the processing

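With the mouse as replicate block 2002 genes were called, and the pairing changed the call of 3 genes named above (Maml2, Fzd7 and Arc) and no other. Counts stayed within 1.5 times of 2351 under RLE factors (2373), upper quartile scaling (2390), DESeq2 (1884), limma-voom (2488), a random mouse term (2863), no batch term (2049), no filter (2582), no mitochondrial genes (2362), all 21 libraries (2709) and a tissue-by-batch term (2349). Thinning to the smallest library gave 1378 (731 higher, 647 lower), batch 1 alone 1241 (633, 608), batch 2 alone 1314 (732, 582), and the mice with both tissues 808 higher. Leaving out each library in turn gave 1580 to 3168 genes, 808 to 1668 higher and 763 to 1500 lower.

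Chosen after seeing the data, leaving out the batch 1 cortex libraries gave 906 (565 higher, 341 lower), a choroid plexus score as covariate 538 (348, 190) and leaving out the hippocampus libraries with choroid plexus transcripts 405 (264, 141). The score lies above every cortex library in 3 of 4 hippocampus libraries, and the last fit holds 1 hippocampus library, so fewer calls follow in part from their construction. With batch as a term, the fit without batch 1 cortex takes its tissue difference from batch 2, as batch 2 alone does. The last fit sets hippocampus 31 against cortex 20 and 37. A prior count of 0.5 in place of 2 left all 40 list scores within the spread between libraries. Over 162 named genes with a call, 4011 of 4305 comparisons with an alternative kept direction and call, 285 lost the call and 9 turned direction. Of the 162 calls, 80 were lost without the hippocampus libraries with choroid plexus transcripts, 60 with the score, 52 without the batch 1 cortex libraries, 34 in batch 2 alone and 18 in batch 1 alone. Those that turned were Kif3a (0.14 in batch 2 alone, 0.14 without batch 1 cortex, 0.16 without the choroid plexus libraries), Epha10 (0.020, 0.018 and 0.092 in the same order), Maml2 (-0.25) without the choroid plexus libraries, and Ttr (-0.077 with the score, -0.061 without those libraries). Of genes without a call, Rorb turned to -0.64 in batch 2 alone and -0.67 without hippocampus 11 (-0.67 to 1.36 over the libraries left out), and Xist to 3.19 without the choroid plexus libraries. Both Rorb fits lack hippocampus 11, where it stood at 1420 CPM. In the Xist fit hippocampus 31, from the mouse high in Xist (94.5 CPM), stands alone against cortex 20 and 37, which were low. Kif3a and Epha10 turned in fits that take the tissue difference from batch 2. What made these libraries differ was not tested. Low counts limit genes under a few CPM.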
